A study of Mus musculus with 10 samples.

Results

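Transcription factors that mark the layers of the cerebral cortex were followed in the brains of Snx14-KO mice and their controls. They were 9 genes chosen by name among the 55536 mouse genes of the count tables: the upper layer genes Cux1, Cux2 and Rorb, the deep layer genes Fezf2, Bcl11b, Tbr1 and Tle4, and 2 genes of projection neurons in all layers, Neurod2 and Neurod6. Bulk RNA-Seq had been done on the cerebral cortex and the cerebellum of 5 mice at 1 year of age. Controls 1 and 2 were heterozygous (Het) and control 3 was wild type (WT) for Snx14, whereas KO 1 and KO 2 carried a frameshift deletion in both copies, made by genome editing on a C57BL/6J background. The deletion is carried in the whole body, so every cell type of both tissues in KO mice has the mutant gene, and the labels describe the samples as a mix of cell types. Each mouse gave both tissues, 1 library each, so KO is represented by 2 animals, and 2 of the 3 controls carry 1 mutant copy.

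The layers of the cortex hold different kinds of excitatory neuron. Upper layer neurons mainly project to other parts of the cortex, and deep layer neurons project to the striatum, thalamus, brainstem and spinal cord. Transcription factors that repress one another set these identities during development, and several stay on in the adult cortex as markers. CUX1 and CUX2 are homeodomain proteins of upper layer neurons and RORB is a nuclear receptor of layer 4. FEZF2 is a zinc finger protein that directs the subcerebral fate, BCL11B (CTIP2) acts with it in layer 5, TBR1 is a T-box protein of layer 6 and TLE4 is a corepressor of layer 6. NEUROD2 and NEUROD6 are basic helix-loop-helix (bHLH) proteins of excitatory neurons. None of these genes belongs to the cortex alone. Bcl11b is also a gene of striatal projection neurons, and Neurod2 is used by granule cells of the cerebellum.

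Each library held between 16088310 and 22975355 counts in genes. Values are given as CPM, the count of a gene per 1000000 counts of the library, scaled by TMM factors, a normalization for library composition, over all 10 libraries. Snx14 itself was at 34.4, 35.0 and 50.9 CPM in the cortex of controls 1, 2 and 3 and at 14.8 and 16.1 CPM in KO 1 and KO 2. The cerebellar values were 42.8, 39.9 and 73.3 CPM in controls and 15.5 and 17.4 CPM in KO, so every KO library lay below every control library of its tissue. The log2 fold change was -1.36 in cortex (edgeR adjusted p = 0.754) and -1.66 in cerebellum (adjusted p = 0.0140). The tissue labels matched their markers. The cerebellar granule cell gene Gabra6 lay between 519.0 and 716.3 CPM in cerebellum and below 1 CPM in all cortex libraries. The cortical excitatory neuron gene Nrgn lay between 1404 and 1443 CPM in cortex and between 2.08 and 6.37 CPM in cerebellum. Slc17a7, listed for both cortical excitatory neurons and granule cells, lay between 950.3 and 1388 CPM in cortex and between 349.7 and 415.0 CPM in cerebellum. By Xist and the Y-linked gene Ddx3y, the males were control 2 and KO 2, and the remaining 3 animals were female. One cortex library stood apart from the rest. In control 2, 62.8% of the 19202 genes tested in cortex lay outside the range of the other 4 cortex libraries, against 32.1% to 35.5% for each of the others. Results that rest on it are given with and without it. Control 2 was the only male control, so every cortex fit without it has female controls only, beside a female and a male KO. The part of sex in those fits was not tested.

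Per length, Neurod6, Neurod2 and Tbr1 stood highest in cortex and Cux1 and Rorb lowest. Levels were compared between genes as CPM per kilobase of exon, with the median over the 5 cortex libraries. Neurod6 was at 32.5 CPM per kilobase, Neurod2 at 29.2 and Tbr1 at 24.9. Bcl11b, Tle4, Cux2 and Fezf2 followed at 14.2, 11.4, 11.2 and 10.7 CPM per kilobase, and Cux1 and Rorb were at 4.70 and 4.03. The library ranges of neighbours in this order overlapped at every step except that from Fezf2 to Cux1. In cerebellum the order was another. Neurod2 led at 48.2 CPM per kilobase and was followed, with no overlap, by Tle4 at 5.75, Cux2 at 5.32 and Cux1 at 5.11, which overlapped one another. Neurod6 at 3.37, Rorb at 1.13, Bcl11b at 0.251 and Tbr1 at 0.121 CPM per kilobase came next, each below the range of the one before, and Fezf2 was last. Lengths are those of all annotated exons of a gene, and counts of Cux1 include a second protein product of the gene (CASP).

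The cerebellum served as the reference tissue, and in controls 3 of the 4 deep layer genes, Fezf2, Tbr1 and Bcl11b, had the largest excess in cortex. Of the 9 genes, 7 differed between cortex and cerebellum of controls in edgeR's quasi-likelihood test (adjusted p under 0.05 and a log2 fold change over 0.5 in either direction), where 40.9% of all 20614 genes tested also differed. The 6 genes higher in cortex were Rorb, Fezf2, Bcl11b, Tbr1, Tle4 and Neurod6, beside 21.8% of all genes, and the 1 gene lower in cortex was Neurod2, beside 19.2%. All 4 deep layer genes were among the higher ones, and of the upper layer genes only Rorb.

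Fezf2 (chromosome 14, 12342094 to 12348189, GRCm38) was at 29.4, 30.0 and 32.5 CPM in control cortex. In cerebellum it was represented by 4, 1 and 0 counts in the 3 controls and by 2 and 0 in KO, so it was close to undetected there. Its counts in control cortex exceeded those in control cerebellum 383-fold after scaling, with a 95% interval of 164 to 1181 that covers counting error only. Tbr1 (chromosome 2, 61802930 to 61814114) was at 136.8, 132.1 and 128.3 CPM in control cortex and at 0.514, 0.694 and 0.661 CPM in control cerebellum, a count ratio of 213 (155 to 299). Bcl11b (chromosome 12, 107910403 to 108003602) was at 118.7, 199.2 and 115.3 CPM against 2.10, 1.43 and 2.04 CPM, a count ratio of 79.8 (66.5 to 96.7). The log2 differences were 8.47 (SE 0.35) for Fezf2, 7.72 (SE 0.12) for Tbr1 and 6.28 (SE 0.27) for Bcl11b, with edgeR adjusted p-values of 8.58e-09, 1.38e-11 and 1.02e-08. These 3 genes were thus nearly confined to cortex among the 2 tissues, whereas Tle4 (chromosome 19, 14448150 to 14598051) was clearly present in both. Tle4 was at 65.3, 104.7 and 65.1 CPM in control cortex and at 29.7, 31.1 and 32.8 CPM in control cerebellum, with a log2 difference of 1.33 (SE 0.16, edgeR adjusted p = 3.40e-05).

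The upper layer genes were well expressed in cerebellum. Cux1 (chromosome 5, 136248135 to 136567490) was at 93.9, 62.3 and 96.8 CPM in control cortex and at 102.2, 93.3 and 100.5 CPM in control cerebellum, and the tissues were not called different (log2 difference -0.23, 95% interval -0.53 to 0.08). Cux2 (chromosome 5, 121856366 to 122050102) was at 102.6, 28.7 and 122.1 CPM in cortex and at 53.6, 43.6 and 54.3 CPM in cerebellum. Cortex control 2 lay below all cerebellar controls and the other cortex controls above them. With all libraries the log2 difference was 0.74 (SE 0.38, edgeR adjusted p = 0.118). Without cortex control 2 it was 1.17 (SE 0.10, edgeR adjusted p = 1.49e-06), and the gene was then called. Rorb (chromosome 19, 18930605 to 19111196) was at 43.2, 32.0 and 44.7 CPM in cortex and at 11.2, 12.5 and 10.6 CPM in cerebellum, a log2 difference of 1.80 (SE 0.15, edgeR adjusted p = 1.50e-06).

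The 2 bHLH genes differed between the tissues in opposite directions. Neurod2 (chromosome 11, 98325415 to 98329648) was at 90.9, 75.1 and 91.9 CPM in control cortex and at 156.0, 151.4 and 127.8 CPM in control cerebellum, a log2 difference of -0.76 (SE 0.11, edgeR adjusted p = 0.000109). Neurod6 (chromosome 6, 55677822 to 55681263) was at 70.5, 75.1 and 58.6 CPM in cortex and at 6.31, 8.33 and 6.46 CPM in cerebellum, a log2 difference of 3.27 (SE 0.14, edgeR adjusted p = 1.10e-08). The groups overlapped for neither gene.

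**Figure D1:**
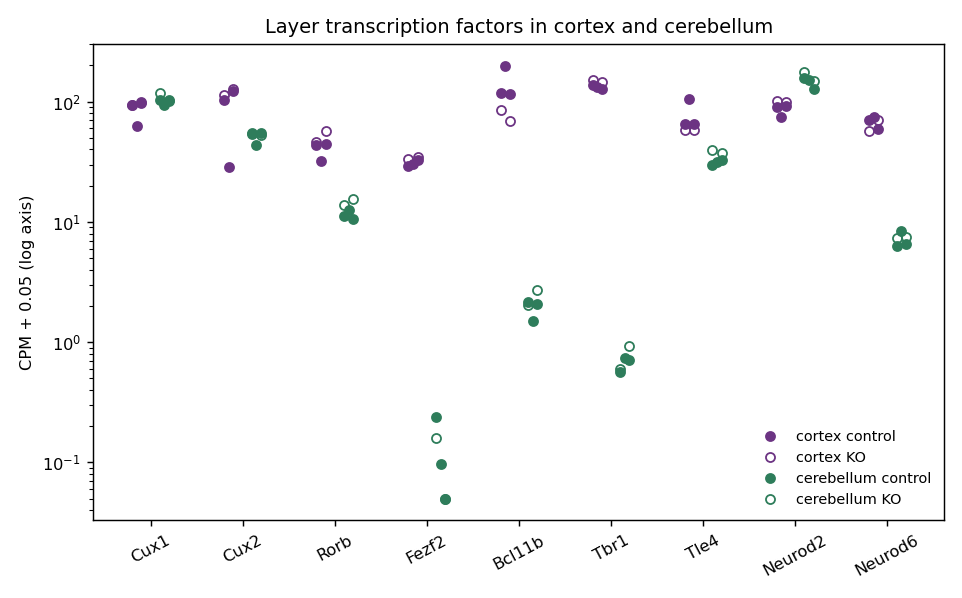
The 9 genes in all 10 libraries, as CPM plus 0.05 on a log axis, with cortex in purple and cerebellum in green (filled, control; open, KO). Fezf2, Bcl11b and Tbr1 sit below 3 CPM in every cerebellum library, Neurod2 is higher in cerebellum than in cortex, and Cux1 overlaps between the tissues.

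Because this pair of related genes went opposite ways, the sequences just upstream of their starts are shown. They were taken from RefSeq on GRCm38.p6 and lie outside the annotated gene in GENCODE M21. Neurod2 is read from the minus strand at chr11:98329649-98329895 and Neurod6 from the minus strand at chr6:55681264-55681513, both 5′ to 3′ and ending where the GENCODE gene begins. Capitals mark matches to 3 of the motifs searched on both strands, which are the promoter box CCAAT, the letters CAGATG of an E-box as bHLH proteins bind, and the letters AGGTGT of a T-box site. Where the match is on the other strand, its reverse complement is what is printed.
Neurod2: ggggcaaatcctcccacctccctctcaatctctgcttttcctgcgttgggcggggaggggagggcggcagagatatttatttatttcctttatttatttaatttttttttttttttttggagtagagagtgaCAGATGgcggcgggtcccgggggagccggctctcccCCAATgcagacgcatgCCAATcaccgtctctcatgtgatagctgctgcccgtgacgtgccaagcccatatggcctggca
Neurod6: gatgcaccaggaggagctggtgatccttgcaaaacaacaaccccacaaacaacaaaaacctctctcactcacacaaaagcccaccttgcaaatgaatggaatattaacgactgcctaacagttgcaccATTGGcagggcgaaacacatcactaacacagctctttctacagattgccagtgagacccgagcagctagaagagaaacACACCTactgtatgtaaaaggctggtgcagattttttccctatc
The Neurod2 window held the E-box letters once and CCAAT 2 times, and the Neurod6 window held CCAAT once and the T-box letters once. None of the marked stretches overlap. In the 250 bases before the start, 14.5% of 32817 RefSeq windows held CAGATG, 33.8% CCAAT and 11.8% AGGTGT. Among all 9 genes, CAGATG was in 1 window, CCAAT in 4 and AGGTGT in 1. Not all 9 windows lie before the annotated gene. Those of Cux1, Cux2, Fezf2 and Tbr1 lie wholly inside it. The RefSeq starts used for Cux1, Fezf2 and Tbr1 were 1509, 2324 and 1523 bases from the GENCODE gene start. The end of the Tle4 window matched no GENCODE transcript of the gene. The letters AGGTCA (a ROR receptor site), ATCGAT (a CUX site) and TATAAA were in the window of none of them, and in 14%, 0.728% and 12.4% of all windows. The median GC content of the 9 windows was 61.2%, and that of all windows 52.4%. A match is only a run of letters and was not tested as a binding site.

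In cortex, KO libraries lay below all controls for Bcl11b and Tle4 and above all controls for Rorb, Fezf2, Tbr1 and Neurod2, but none of the 9 genes was called when all 5 libraries were compared. No gene at all was called there (0% of 19202 genes with edgeR), Snx14 included. At an unadjusted p under 0.05, 1139 genes (5.93%) passed, and among the 9 these were Rorb and Bcl11b. DESeq2, which was given all 55536 genes, called 50 in cortex, among them Bcl11b. For 6 of the 9 genes the ranges of the groups were separate, 4 of them higher and 2 lower in KO, and for 24.7% of all tested genes they were separate too (10.5% higher and 14.2% lower). Leaving out control 2 can only narrow the range of the controls, so these 6 genes had to stay separate. No further gene of the 9 became separate, and the share over all tested genes was then 41.4% (17.6% higher and 23.8% lower). In bulk tissue, fewer cells of a type and less RNA per cell cannot be told apart.

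**Figure D2:**
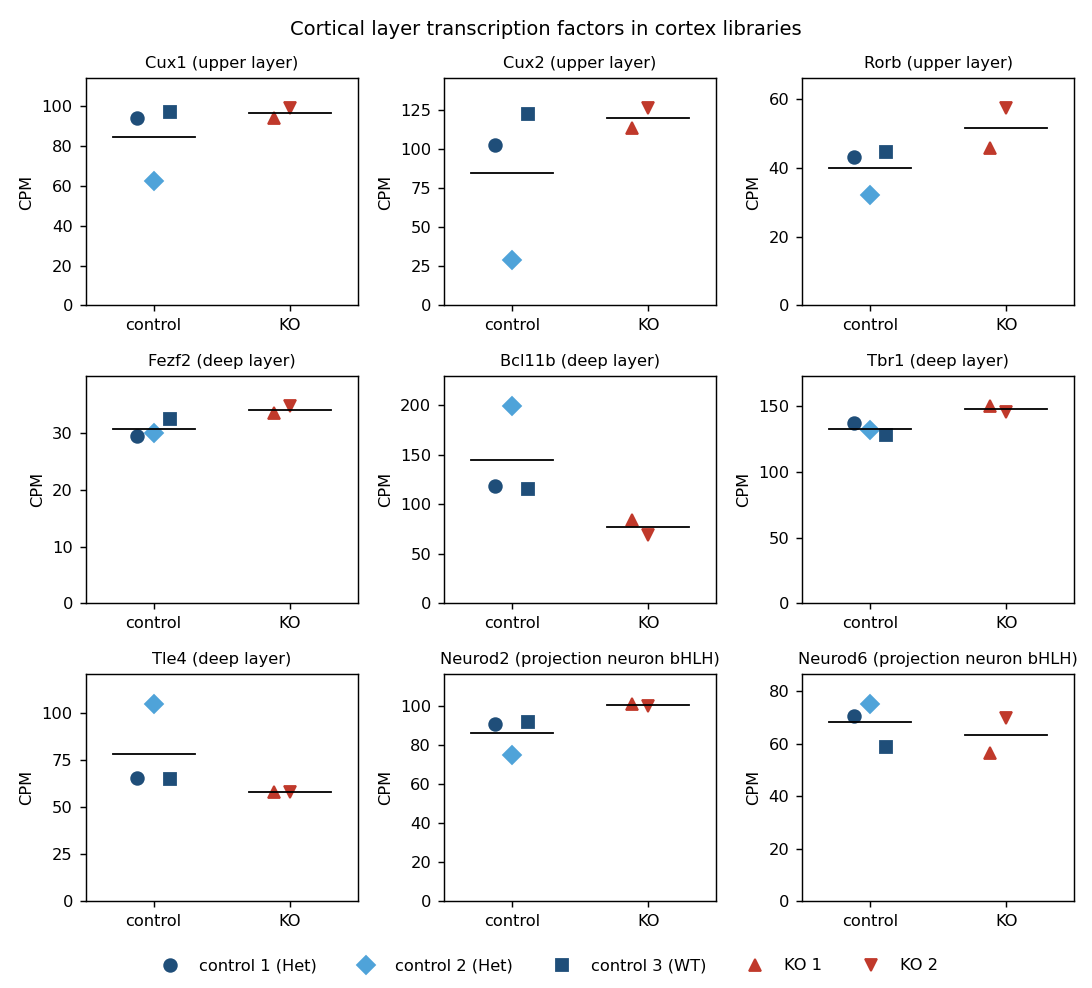
CPM of the 9 genes in the 5 cortex libraries (blue, controls; red, KO), 1 panel per gene, with each axis starting at 0 and the black line at the group mean. Control 2 (light blue diamond) is the lowest library for Cux1, Cux2, Rorb and Neurod2 and the highest for Bcl11b, Tle4 and Neurod6.

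The upper layer genes were not called. Cux1 was at 94.1 and 98.9 CPM in KO 1 and KO 2, which overlapped controls 1 and 3, and its log2 fold change was 0.21 (95% interval -0.20 to 0.62). Cux2 was at 113.4 and 126.2 CPM in KO, on either side of control 3 at 122.1 CPM. Its log2 fold change of 0.52 had the widest interval of the 9 genes, -0.59 to 1.64, and was 0.11 (-0.07 to 0.29) without control 2. Rorb was at 45.7 and 57.4 CPM in KO and at 43.2, 32.0 and 44.7 CPM in controls, so both KO libraries were higher, KO 1 by a small margin. Its log2 fold change was 0.38 (SE 0.16, edgeR adjusted p = 0.831) with all libraries and 0.24 (adjusted p = 0.371) without control 2. Astrocyte genes were also higher in these KO libraries. The 9 genes of that list summed to 4992, 3729 and 4744 CPM in controls 1, 2 and 3 and to 5319 and 5609 CPM in KO, with 8 of 9 higher and 0 called, or 1 (Gjb6) without control 2. Their part in the values of Rorb was not tested.

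Among the deep layer genes, Bcl11b differed most. It was at 84.5 and 68.7 CPM in KO and at 118.7, 199.2 and 115.3 CPM in controls, and both KO libraries lay below the lowest control. The log2 fold change was -0.90 (SE 0.25, 95% interval -1.48 to -0.32), with an adjusted p of 0.754 in edgeR. DESeq2 gave the same change of -0.90 with an adjusted p of 0.0424. Without control 2, the highest library, the log2 fold change was -0.59 (SE 0.09, edgeR adjusted p = 0.00818) and the gene was called, as were 0.517% of 18968 genes. Bcl11b was the only one of the 9 genes called in that fit, which has no male control. KO 2, the male KO, was the lower of the KO libraries, and the part of sex was not tested. Control 2 thus raised the size of the difference and its spread at once.

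Tle4 was at 58.3 and 57.8 CPM in KO and at 65.3, 104.7 and 65.1 CPM in controls, and KO lay below all controls. Its log2 fold change was -0.42 (SE 0.21, edgeR adjusted p = 0.877) and -0.15 (adjusted p = 0.442) without control 2. The other 2 deep layer genes leaned the other way. Fezf2 was at 33.5 and 34.7 CPM in KO, just above the highest control at 32.5 CPM, with a log2 fold change of 0.17 (95% interval -0.06 to 0.41). Tbr1 was at 150.1 and 145.8 CPM in KO and at 136.8, 132.1 and 128.3 CPM in controls, with a log2 fold change of 0.17 (-0.02 to 0.37). Both genes changed little when control 2 was left out, to 0.16 for Fezf2 and 0.18 for Tbr1. The deep layer genes therefore did not differ in 1 direction.

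Neurod2 was at 101.1 and 99.9 CPM in KO and at 90.9, 75.1 and 91.9 CPM in controls, so both KO libraries were higher. Its log2 fold change was 0.24 (95% interval -0.01 to 0.49). Neurod6 was at 56.5 and 69.9 CPM in KO, below and within the controls at 70.5, 75.1 and 58.6 CPM, with a log2 fold change of -0.09 (-0.41 to 0.22).

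**Figure D3:**
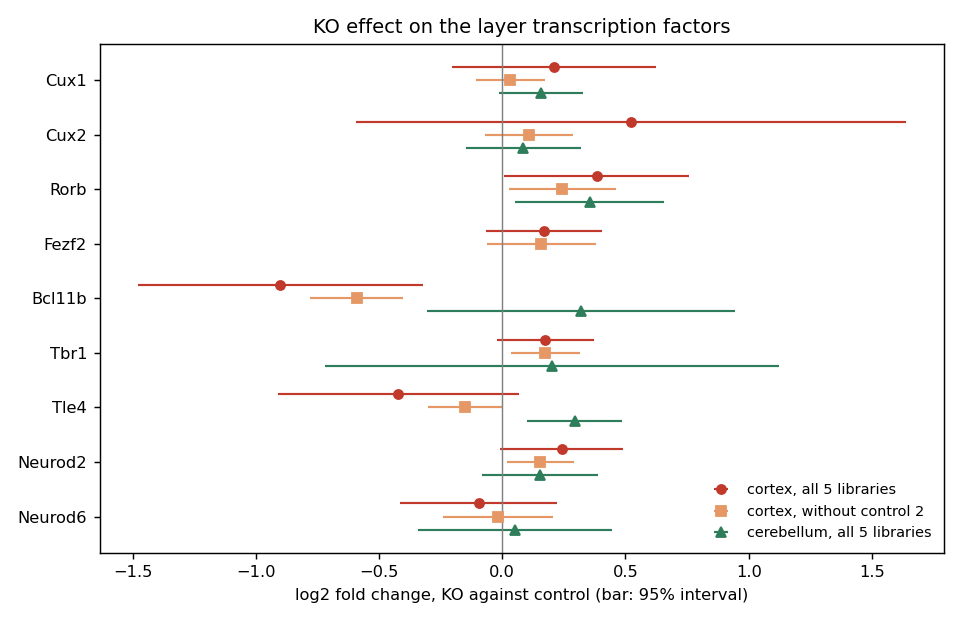
Log2 fold change of KO against control for each gene, with its 95% interval, in cortex with all 5 libraries (red circles), in cortex without control 2 (orange squares) and in cerebellum (green triangles, Fezf2 not tested). Leaving out control 2 narrows the intervals of Cux2, Tle4 and Bcl11b and moves these values toward 0, and Bcl11b is at -0.59 without it.

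Cortex control 2 differed from the other 4 cortex libraries in most of the 9 genes. It was below all of them for Cux1, Cux2, Rorb and Neurod2, above all for Bcl11b, Tle4 and Neurod6, and within their range for Fezf2 and Tbr1. Cux2 was at 0.248 of the mean of the others, Bcl11b at 2.06 and Tle4 at 1.70 times that mean. Other layer genes from lists of known markers went with them. Of 14 other upper layer genes, 12 were below the other 4 libraries in control 2 and 0 above, and of 18 other deep layer genes, 11 were above and 3 below. Over all tested genes, 30.6% were below and 32.2% above. The largest shifts of the 2 lists were in Rasgrf2, a layer 2/3 gene, and in Foxp2, a layer 6 gene. Rasgrf2 was at 49.9 CPM in control 2 and between 165.2 and 200.3 CPM in the others. Foxp2 was at 64.1 CPM in control 2 and between 19.7 and 27.9 CPM in the others. Within the range of the others were 4 of the 18 deep layer genes, among them Ntsr1 (7.71 CPM, others 6.11 to 8.46 CPM). Genes of other lists were low there too. Of 13 cortical excitatory neuron genes 10 were below, of 15 other transcription factors of projection neurons 9, of 6 partners or targets of TBR1 5, and of 9 astrocyte genes 7. Genes of several lists were mostly high there. Of 10 immediate early genes 6 were above and 0 below, and of 8 microglia genes 5 were above and 1 below. All 17 striatal genes and all 8 oligodendrocyte genes of the lists were higher in control 2 than in any other cortex library. KO 2, the other male, did not share this place, and the part of neighbouring tissue or of sex in it was not tested.

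**Figure D4:**
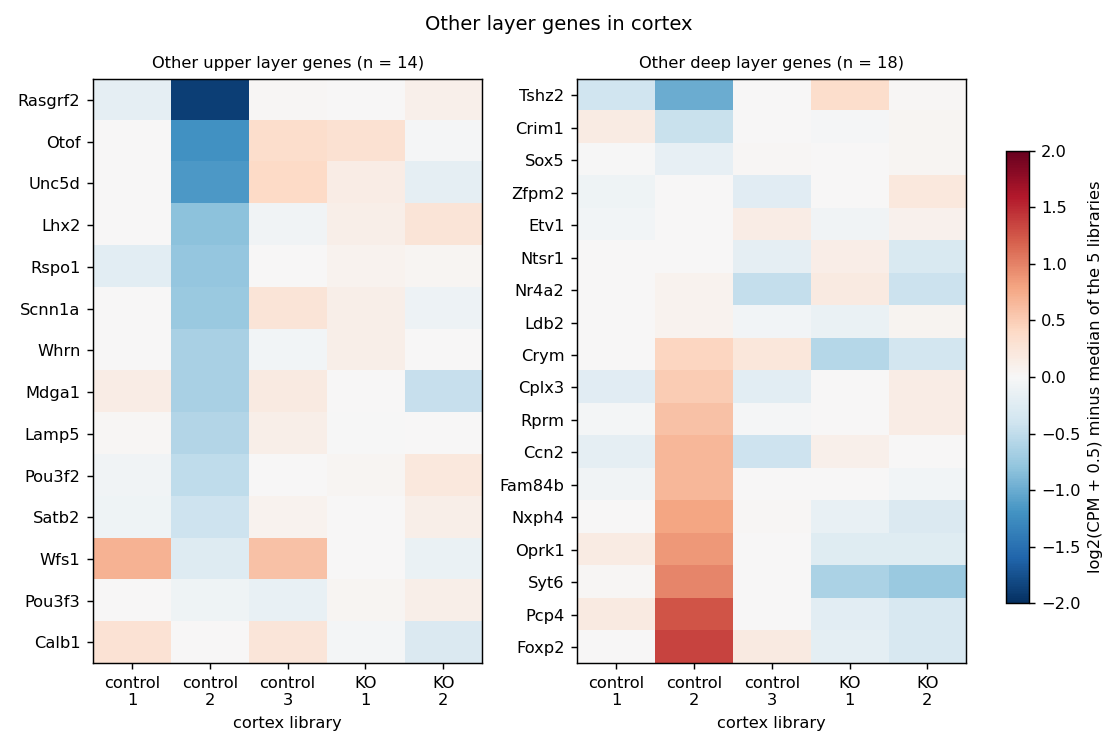
The 14 other upper layer and 18 other deep layer genes in the 5 cortex libraries, as log2(CPM + 0.5) minus the median of the 5 libraries (blue, lower; red, higher), ordered by control 2. Control 2 is the column that differs, with 12 upper layer genes lower and 11 deep layer genes higher than in all other libraries.

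An index of the balance between layers was taken for each cortex library as the mean log2(CPM + 0.5) of the 3 upper layer genes minus that of the 4 deep layer genes. It was -0.0027, -1.30 and 0.11 in controls 1, 2 and 3 and 0.16 and 0.41 in KO 1 and KO 2. Both KO libraries were highest, control 3 was close below KO 1, and control 2 was far from all. The KO mean exceeded the control mean by 0.68, which is less than the SD of the 3 controls (0.78), a spread that comes mainly from control 2. Without control 2 the difference was 0.23, with controls 1 and 3 at -0.0027 and 0.11. When Bcl11b was left out of the index, the values were 0.22, -0.94 and 0.32 in controls and 0.24 and 0.43 in KO, and KO 1 then lay between controls 1 and 3. The same index over the other layer genes was 0.68, -0.46 and 0.80 in controls and 0.75 and 0.71 in KO, with both KO libraries between controls 1 and 3. Deep layer genes that were high in control 2 stayed in both of these indices, Tle4 in the former and Foxp2 among others in the latter.

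The other layer genes, taken as lists, were not called in cortex. Of the 14 other upper layer genes, 11 were higher and 3 lower in KO, with 0 called and a median log2 fold change of 0.19. Of the 18 other deep layer genes, 7 were higher and 11 lower, with 0 called and a median of -0.03, and the median over all tested genes was 0.0012. Without control 2 the medians were 0.03 and 0.02, so neither list leaned to one side. In that fit Wfs1, an upper layer gene, was called lower (log2 fold change -0.70, edgeR adjusted p = 0.00207), as were the deep layer genes Crym, which binds thyroid hormone (-0.57, adjusted p = 0.0132), and Syt6, a synaptotagmin (-0.69, adjusted p = 0.0109). Crym was at 57.2, 76.9 and 66.8 CPM in control cortex and at 38.4 and 44.1 CPM in KO. Syt6 was at 34.7, 67.6 and 34.2 CPM in controls and at 21.9 and 20.3 CPM in KO. Among 15 other transcription factors of projection neurons, 12 were higher and 3 lower in KO (median 0.19, 0 called). Of these Lmo3 had the smallest p and was at 121.8, 139.3 and 117.3 CPM in controls and at 85.1 and 82.1 CPM in KO (log2 fold change -0.58, edgeR adjusted p = 0.754). Syt6 and Lmo3 ranked the cortex libraries in the same order as the striatal genes described next, and Crym and Wfs1 did not. The part of striatal tissue in the values of these genes was not tested.

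Striatal markers ranked the cortex libraries as Bcl11b and Tle4 did. The 17 striatal genes summed to 2695, 5860 and 2485 CPM in controls 1, 2 and 3. In KO 1 and KO 2 the sums were 1567 and 890 CPM. Bcl11b and Tle4 had the same order of libraries, Tle4 with small steps between controls 1 and 3 and between the KO libraries. All 17 were lower in KO with a median log2 fold change of -1.82, and 0 were called. Without control 2 the median was -1.26, all 17 were lower and 11 were called, among them the dopamine receptor genes Drd1 (-1.11, edgeR adjusted p = 0.0168) and Drd2 (-1.50, adjusted p = 0.0272). Adcy5, the striatal adenylate cyclase, was at 385.1, 650.5 and 352.2 CPM in controls and at 230.1 and 179.6 CPM in KO. Oligodendrocyte genes did not separate the groups in this way. They summed to 4873, 8998 and 4966 CPM in controls and 5331 and 5284 CPM in KO. Summed cortical excitatory neuron genes were at 8544, 6008 and 8167 CPM in controls and 8107 and 8593 CPM in KO. The part of striatal tissue in the differences of Bcl11b and Tle4 was not tested.

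**Figure D5:**
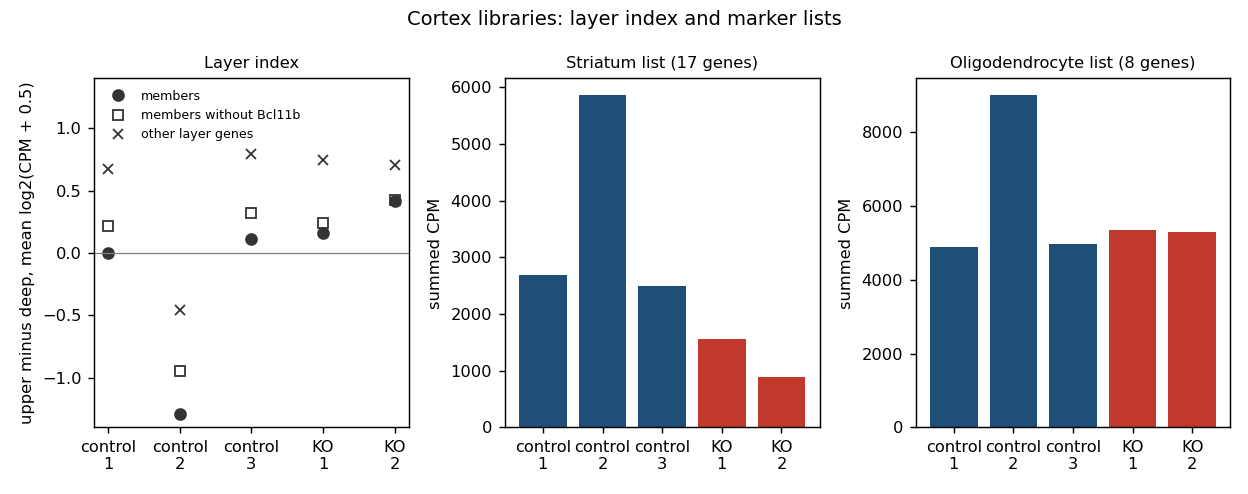
Left, the upper minus deep layer index per cortex library on a log2 scale, for the 7 layer genes, without Bcl11b and for the other layer genes. Middle and right, summed CPM of 17 striatal and 8 oligodendrocyte genes (blue, controls; red, KO), where control 2 is the highest library in both and the 2 KO libraries are the lowest for the striatal genes only.

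In cerebellum, 0 of the 8 genes tested were called, where 302 of 19447 genes (1.55%) were. Fezf2 had too few counts to be tested. The groups were separate for 3 of the 8, all higher in KO, as they were for 30% of all tested genes (15.5% higher). Tle4 was at 39.4 and 37.6 CPM in KO and at 29.7, 31.1 and 32.8 CPM in controls, with a log2 fold change of 0.29 (SE 0.08, adjusted p = 0.154 in edgeR). Rorb was at 13.9 and 15.5 CPM in KO and at 11.2, 12.5 and 10.6 CPM in controls, with a log2 fold change of 0.36 (SE 0.13, edgeR adjusted p = 0.285). Cux1 was at 118.0 and 103.4 CPM in KO and at 102.2, 93.3 and 100.5 CPM in controls, with a log2 fold change of 0.16 (SE 0.07, edgeR adjusted p = 0.419). Purkinje cell genes differed in the same libraries, with 14 of 14 lower in KO and 10 called, and astrocyte genes with 7 of 9 higher and 4 called. Their part in the values of the layer genes was not tested. The other 5 genes had log2 fold changes between 0.05 (Neurod6) and 0.32 (Bcl11b), and Bcl11b and Tbr1 rested on 10 to 64 counts per library there.

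The KO effects in cortex and in cerebellum were compared as an interaction term over all 10 libraries. None of the 9 genes was called, where 21 of 20614 genes (0.102%) were, and with the animal as a block 128 genes and again 0 of the 9. At an unadjusted p under 0.05, which 8.28% of all genes passed, were Bcl11b and Tle4. The log2 fold change in cortex minus that in cerebellum was -1.25 for Bcl11b (SE 0.44, adjusted p = 0.419 in edgeR) and -0.74 for Tle4 (SE 0.25, adjusted p = 0.390). Without cortex control 2 these were -0.93 (edgeR adjusted p = 0.155) and -0.45 (adjusted p = 0.0958). For Rorb the effect was nearly the same in both tissues, with a difference of 0.0048 and a 95% interval of -0.50 to 0.51.

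Across the 10 libraries, the genes whose pattern was most like each member were found as those with the smallest root mean square difference in log2 CPM after centring. The libraries share animals and fall into 2 tissues, so for most members this likeness is mainly that of the tissue difference. For Bcl11b they were Ngef (0.27), Pdyn (0.28) and Lmo3 (0.31). Pdyn encodes the opioid precursor prodynorphin. For Fezf2 the nearest was Kcnh3 (0.16), a potassium channel gene, and for Neurod6 it was Lrrtm1 (0.15), a synaptic adhesion gene. For Tbr1 it was Gm26592 (0.21), which shares 45.7% of its exonic bases with other genes, followed by Kcnj4 (0.22), a potassium channel gene. For Tle4 it was Gpr12 (0.11) and for Rorb Slc1a2 (0.11), the astrocyte glutamate transporter. Neurod2 was nearest to Sesn1 (0.07) and Cux1 to Ulk1 (0.07). Cux2, with its low value in cortex control 2, had Gm10493 (0.23), whose exonic bases lie 100% within other genes, followed by Gm41505 (0.24) and Hspa1b (0.24).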

How the data were processed

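RNA-Seq was analysed from 10 libraries, cortex and cerebellum of 3 control and 2 KO mice, grouped by the labels. The authors deposited raw counts per gene, 1 table per library. According to the study's methods, strand-specific mRNA-Seq libraries were sequenced as read pairs, trimmed and aligned to GRCm38 with STAR, and per the file headers counted over exons with featureCounts (Subread 2.0.1). Strand was not used and a pair in several genes was counted for each. Exons of Cux1 overlap an antisense gene over 1.97% of their bases, and those of the other 8 genes overlap none. Of 81881 entries, 55536 mouse genes were used. The other 26345 entries held 0.160% to 0.926% of a library's counts and were left out.

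Groups were compared with edgeR 4.0.16 (R 4.3.3), TMM factors and filterByExpr with a count minimum of 10. The threshold for a call was an adjusted p (Benjamini-Hochberg, over all genes tested) under 0.05 with a log2 fold change over 0.5 in size, and for the interaction the adjusted p alone. DESeq2 1.42.0, other scaling, other filters, a replicate block and leaving out each library were alternatives, and the script was tested on simulated data. Separate mice are the replicates. Counts of pairs within a group differed beyond sampling noise, and no library was pooled. Tissues of 1 animal are paired by the labels, and their deviations from the group means correlated at 0.197, 0.370 and 0.164 in controls 1 to 3 and at 0.326 in KO. The genes and the lists were chosen with earlier results of these data known. Named genes were the 9 members, Snx14, at most 3 of each list with the smallest p in cortex, and the 3 most like each member. Gabra6, Slc17a7, Nrgn, Ddx3y, Xist, Rasgrf2, Foxp2, Ntsr1, Wfs1, Drd1 and Drd2 were added after their values were seen.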

Additional observations from a re-analysis of the deposited data

Results flagged for a closer look

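Tle4 was the 1 member for which the KO and control libraries were separate in both tissues, with opposite directions. In cortex both KO libraries (58.3 and 57.8 CPM) lay below all controls (65.1 to 104.7 CPM), and in cerebellum both (39.4 and 37.6 CPM) lay above all controls (29.7 to 32.8 CPM). The KO effect in cortex minus that in cerebellum was -0.74 on the log2 scale (SE 0.25), and the interaction test of edgeR gave an adjusted p of 0.390, so the difference did not pass the threshold. Bcl11b also had fold changes of opposite sign, -0.90 in cortex and 0.32 in cerebellum, but its groups overlapped in cerebellum. Rorb was separate in both tissues too, higher in KO each time. Over all tested genes, 24.7% were separate in cortex and 30% in cerebellum, and the share separate in both was not counted.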

How the results depend on the processing

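The count of genes called in cortex, 0 with all libraries, was 50 with DESeq2 (3 higher and 47 lower), 380 with no filter on low counts and 3 with the replicate block, and it ranged from 0 to 98 when 1 library was left out, with 98 without control 2 and 7 without KO 2. Of the 9 genes, 1 (Bcl11b) was called with DESeq2, 2 (Bcl11b and Cux2) with no filter, and 0 to 1 with a library left out. In cerebellum, 302 genes became 842 with no filter and 181 with the replicate block, and 133 to 400 with a library left out (133 without control 1, 179 without control 3 and 180 without KO 1). For the interaction, 21 became 218 with DESeq2, 599 with no filter (2 of the 9, Bcl11b and Tle4), 128 with the animal as a block and 3 to 117 with a library left out (117 without cortex control 2). DESeq2 and the fits with no filter started from more genes than the main fits, so these counts are not shares of the same base. The fits with no filter took every gene with any count and estimated infinite prior degrees of freedom. The causes of these shifts were not tested otherwise. The replicate number paired control and KO mice within a tissue by the labels' numbering. By Xist and Ddx3y, control 1 and KO 1 were female and control 2 and KO 2 male, so this numbering also matched sex. Deviations of these pairs were correlated at 0.0165 and -0.0353 in cerebellum and 0.0615 and 0.114 in cortex. The replicate block called 0 of the 9 genes. In cortex against cerebellum, called 7 of 9 under most alternatives and 8 with no filter or without cortex control 2 (Cux2 added), the median of all genes moved from -0.02 to -0.12 with library totals only and to 0.15 with DESeq2.

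Values that changed sign when 1 library was left out were all uncalled. They ranged in cortex from -0.25 to 0.043 for Neurod6, in cerebellum from -0.010 to 0.14 for Cux2, from -0.19 to 0.48 for Tbr1 and from -0.023 to 0.19 for Neurod6, and in the interaction from -0.13 to 0.16 for Cux1, from -0.17 to 0.16 for Rorb, from -0.65 to 3.89 for Fezf2, from -0.32 to 0.34 for Tbr1 and from -0.058 to 0.20 for Neurod2. The layer index difference of 0.68 lay between 0.23 and 0.93 with a library left out. The medians of the lists without control 2 were an alternative chosen after seeing the data, as was the count of separate groups. With 2 KO mice, a wide interval does not show that a gene was unaffected, and in cerebellum Fezf2, Tbr1 and Bcl11b are limited by their counts.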

Other observations

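Relatives of the layer genes were measured in the same libraries. Of 12 paralogs of the 9 genes, 9 had enough counts to be tested in cortex. In KO 8 were higher and 1 was lower, with 0 called and a median log2 fold change of 0.30, or 0.19 without control 2. Tle2, a corepressor related to Tle4, was at 26.4, 23.5 and 26.8 CPM in controls 1, 2 and 3 and at 33.1 and 31.4 CPM in KO, which is opposite to Tle4 in direction (log2 fold change 0.35, edgeR adjusted p = 0.768).

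Of 6 genes known as partners or targets of TBR1, 3 were higher and 3 lower in KO cortex, with 0 called and a median of -0.01, or -0.15 without control 2. Reln, which encodes the secreted protein reelin and is controlled by TBR1 in early cortical neurons, was at 86.4, 77.8 and 83.9 CPM in controls and at 69.2 and 66.5 CPM in KO (log2 fold change -0.27, edgeR adjusted p = 0.768). The groups did not overlap for Reln in cortex. In adult cortex Reln is mostly a gene of interneurons. Of the 11 cortical interneuron genes listed, Reln among them, 5 were higher and 6 lower in KO, with 0 called and a median of -0.06. Gad2, the one with the smallest p, was at 172.5, 196.7 and 183.7 CPM in controls and at 145.5 and 139.9 CPM in KO (log2 fold change -0.36, edgeR adjusted p = 0.754). Gad2 is also a gene of the striatum, and the part of striatal tissue in its value was not tested.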
